A study of Mus musculus with 18 samples.

Results

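Complement and coagulation factors are plasma proteins that the liver makes and secretes. A set of 36 such genes was followed over all groups of a liver microarray study, by taking every probe set whose platform symbol was exactly one of the 36 names and keeping, for each gene, the probe set with the highest mean over the arrays. Of the 36 genes, 33 had a probe set of their own, and all 33 were among the 13228 genes tested, out of 18193 genes with a probe set of a single symbol. C3 and Cpb2 had no such probe set, and C4b shared its only one with C4a, so these 3 genes have no value here.

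The livers came from wild-type CD1 mice, an outbred strain, whose age the labels used here do not give. For the prevention model the animals were given vehicle or CMPF, at 6 mg/kg per day, during 1 week and were then kept on a high-fat diet (HFD, 60% of energy from fat) for 4 weeks per the sample labels, or 4-5 weeks per the text of the series. For the reversal model they ate HFD during 6 weeks before 2 weeks of injections of vehicle or the same dose of CMPF. CMPF is a furan fatty acid metabolite found in blood. Each model had 3 groups: chow control, HFD control and HFD with CMPF, each with 3 arrays, 18 arrays in 6 groups. The chow groups are labelled only as controls, so whether they received vehicle is not stated. The labels do not say that the 3 arrays of a group are 3 animals, so p-values measure spread between arrays, which may be technical. In the prevention CMPF group, replicates 2 and 3 were closer to each other than the arrays of any other pair (0 genes over 2-fold, where the other 152 pairs had 115 or more) and were averaged, leaving n = 2 there and 17 samples.

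Complement is a cascade of plasma proteases that marks microbes and damaged cells. It is started by antibody (classical pathway), by sugar-binding lectins (lectin pathway) or spontaneously (alternative pathway), and ends with the insertion of the membrane attack complex, built from C5 (gene Hc in the mouse), C6, C7, C8 and C9, into a membrane. Coagulation is a second protease cascade, which turns prothrombin into thrombin and fibrinogen into fibrin, and is held in check by serpins and by the protein C system. Hepatocytes are the main source of most of these proteins, and several of them, the fibrinogen chains among them, are acute-phase proteins whose synthesis is raised by interleukin 6.

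The promoters of 5 genes that carry the results are shown, taken from RefSeq (build GRCm38.p6): the 4 with the strongest fall on HFD in the prevention model, C6, C8b, F11 and Serpind1, and C4bp, which fell in one model and rose in the other. Each window runs 5′ to 3′ on the gene's own strand from 250 bases before to 50 bases after the start that the window was built on. For C6, F11 and C4bp that start lies inside the annotated gene and not at its outer end, and motif positions are counted from it. Capitals mark every match, on either strand, to 6 motifs known from liver promoters: the HNF1 core GTTAAT, the HNF4 motif CAAAGNNCA, the C/EBP motif TTGCNNAA, the STAT motif TTCNNNGAA, the interleukin 6 response element CTGGGAA and the TATA box TATAAA.
C6, chr15:4726960-4727259, plus strand: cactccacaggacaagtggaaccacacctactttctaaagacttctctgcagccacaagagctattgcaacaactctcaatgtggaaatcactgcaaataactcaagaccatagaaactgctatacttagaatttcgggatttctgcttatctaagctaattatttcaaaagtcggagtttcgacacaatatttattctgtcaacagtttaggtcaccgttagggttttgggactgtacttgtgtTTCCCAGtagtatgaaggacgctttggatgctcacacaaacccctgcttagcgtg
C8b, chr4:104766067-104766366, plus strand: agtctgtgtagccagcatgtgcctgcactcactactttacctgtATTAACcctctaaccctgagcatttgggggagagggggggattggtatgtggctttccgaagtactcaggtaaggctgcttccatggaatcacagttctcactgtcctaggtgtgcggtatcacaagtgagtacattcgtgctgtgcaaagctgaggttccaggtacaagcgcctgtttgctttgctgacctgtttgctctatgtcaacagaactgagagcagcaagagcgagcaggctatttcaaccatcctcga
F11, chr8:45261982-45262281, minus strand: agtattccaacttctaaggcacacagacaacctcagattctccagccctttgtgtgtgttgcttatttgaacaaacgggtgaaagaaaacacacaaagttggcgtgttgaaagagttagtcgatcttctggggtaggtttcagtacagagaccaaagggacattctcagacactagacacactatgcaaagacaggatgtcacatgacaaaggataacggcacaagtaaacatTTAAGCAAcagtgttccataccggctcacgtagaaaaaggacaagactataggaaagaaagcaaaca
Serpind1, chr16:17331121-17331420, plus strand: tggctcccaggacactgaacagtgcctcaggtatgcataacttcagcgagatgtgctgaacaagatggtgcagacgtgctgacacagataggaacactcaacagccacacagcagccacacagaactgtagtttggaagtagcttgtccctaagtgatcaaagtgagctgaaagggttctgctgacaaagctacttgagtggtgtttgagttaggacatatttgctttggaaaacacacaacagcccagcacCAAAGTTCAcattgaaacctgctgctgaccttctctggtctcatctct
C4bp, chr1:130661569-130661868, minus strand: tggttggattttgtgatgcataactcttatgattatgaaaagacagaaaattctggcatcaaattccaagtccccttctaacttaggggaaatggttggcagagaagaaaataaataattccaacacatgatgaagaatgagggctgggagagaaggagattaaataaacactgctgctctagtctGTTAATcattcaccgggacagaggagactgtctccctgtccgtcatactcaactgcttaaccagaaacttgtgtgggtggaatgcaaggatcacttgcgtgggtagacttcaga

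The 5 windows hold 1 match each, and the matches are to different motifs except in C8b and C4bp. The C4bp window has the HNF1 core at bases 64 to 59 before the start, and the C8b window has it at bases 206 to 201 before the start on the opposite strand. The F11 match is to the C/EBP motif, at bases 17 to 10 before the start, the Serpind1 match is to HNF4, at bases 3 to 11 after it, and the C6 match is to the interleukin 6 element, reaching from base 5 before to base 2 after the start. None of the 5 windows holds the STAT motif or the TATA box, which says only that these letters are absent there.

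Over the 26 tested genes with a window, the HNF1 core was found in 8 (30.8%, against 7.10% of all 32851 windows): C4bp, C8a, C8b, F13b, F2, Fga, Fgb and Hc. HNF4 was found in 6 (23.1%, against 6.36%), C/EBP in 7 (26.9%, against 10.8%), STAT in 6 (23.1%, against 8.30%) and the interleukin 6 element in 5 (19.2%, against 11.1%). The TATA box was in 2 of the 26 (7.69%, against 13.6%), Hc and Klkb1. Fga held the HNF1, HNF4, C/EBP and STAT motifs and Fgb the HNF1, C/EBP, STAT and interleukin 6 motifs. The shares of the 26 count genes, while the shares they are set against count windows. The 2 are unlike measures where a gene has more than 1 window. A match is a description of the letters and shows no binding. Several of the genes are direct neighbours in the mouse gene table, so they are not independent loci. These are C2 and Cfb, C8a and C8b, F11 and Klkb1, F7 and F10, and Fga and Fgg, with Fgb close by.

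All values are log2 signals normalised by the authors, and an effect is a difference of group means in log2 with its standard error (SE), so that 1 is a doubling. The means of the arrays lay at 2 levels, near 5.09 in the prevention and 5.25 in the reversal model, so effects and not levels are compared between models. Tests are limma's moderated tests with Benjamini-Hochberg adjustment over the 13228 genes, and "rose" and "fell" are used for an adjusted p under 0.05. The summed signal of 6 hepatocyte markers (Alb, Ttr, Apoa1, Apob, Cps1 and Tat) was within 16.2 to 16.5 on every array, which fits the tissue label. Reversal chow replicate 2 stood apart, with a median correlation of 0.948 with the arrays of its model against 0.973 or higher for every other array. The 3′ to 5′ index is the log2 signal of the 3′ minus the 5′ control probe sets of Gapdh and beta-actin, and shorter RNA raises it. Its mean in prevention chow was 1.43 ± 0.512 (SD, n = 3), against 2.84 ± 0.303 (n = 3) in prevention HFD and 2.95 ± 0.285 (n = 2) in prevention CMPF. In the reversal model it was 3.15 ± 0.566 in chow, 2.62 ± 0.969 in HFD and 2.63 ± 0.957 in CMPF (n = 3 each).

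**Figure D1:**
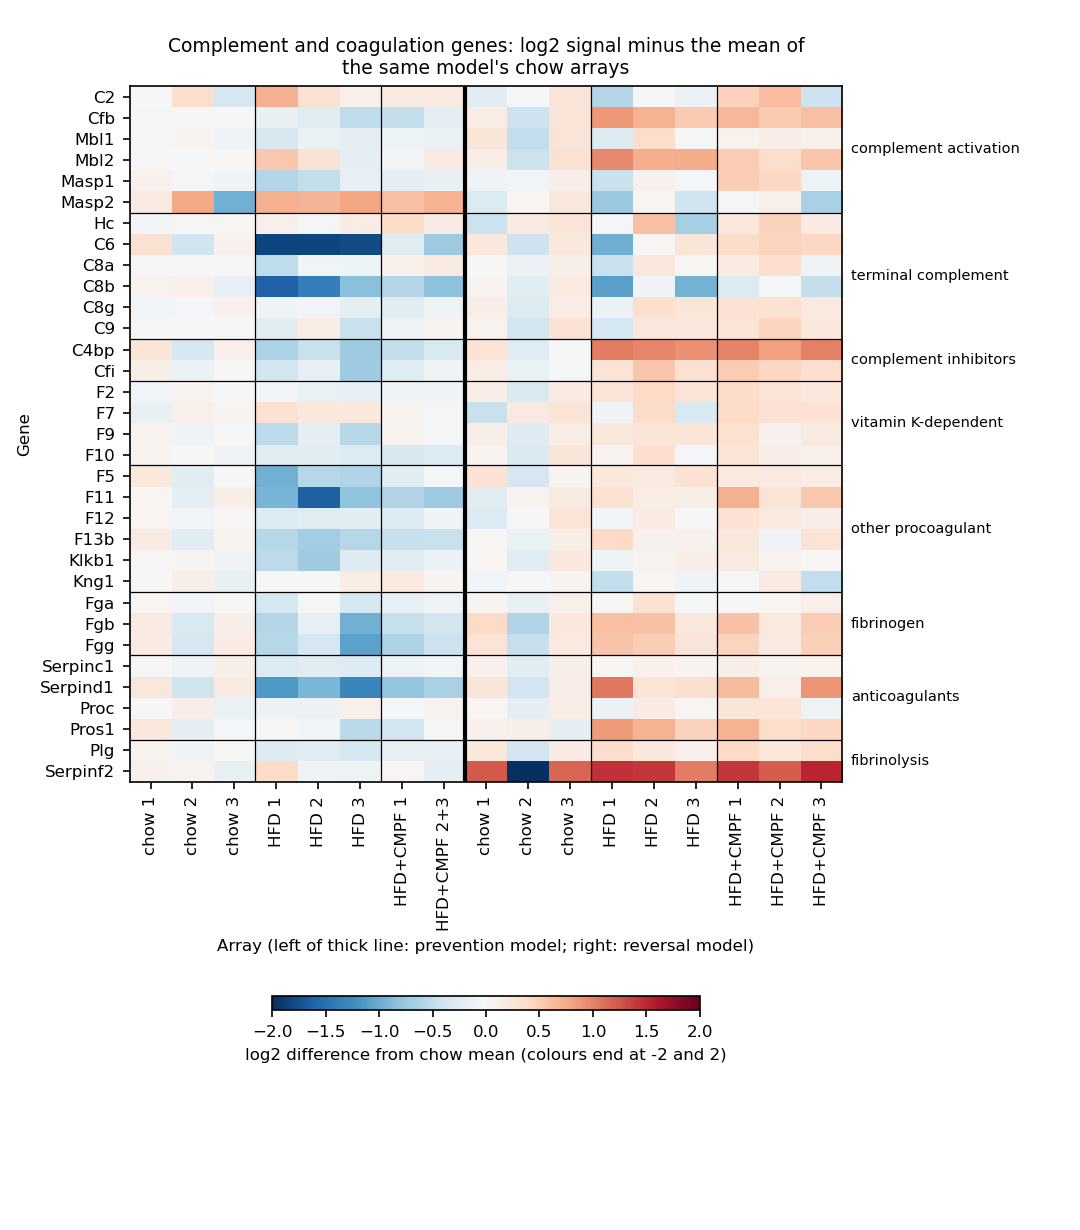
Log2 signal of the 33 genes (rows, by role) on each of the 17 samples (columns), minus the mean of the chow arrays of the same model. C6, C8b, F11 and Serpind1 are blue on all 3 prevention HFD arrays, C4bp is red on all 6 reversal HFD arrays, and the Serpinf2 row of the reversal model is shifted by chow 2, whose value lies beyond the end of the colour scale.

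HFD was first set against chow in the prevention model. Of the 33 genes, 8 fell and 0 rose (C6, C8b, F11, Serpind1, F5, F13b, C4bp and Klkb1), where 3.83% of all genes tested fell and 1.74% rose. The effect was negative for 26 of the 33 (49.7% of all genes) and the median effect was −0.25, against 0.00 over all genes tested. That median was −0.145 after quantile normalisation over all arrays and −0.337 with the 3′ to 5′ index as a covariate. At an unadjusted p under 0.05 there were 15 genes on the lower side (14.3% of all genes) and 1 on the higher side (10.5%). In 21 of the 33 genes the 3 HFD arrays all lay below the 3 chow arrays (17.2% of all genes), and in 1, F7, they all lay above (12%). In bulk tissue, fewer hepatocytes and less RNA per hepatocyte cannot be told apart.

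Of the 6 terminal complement genes 2 fell, and 1 of them, C6, had the largest effect of the 33 genes. C6, the first component to bind to C5b in the attack complex, read 10.09, 9.37 and 9.87 on the chow arrays, 7.94, 7.94 and 7.99 with HFD, and 9.53 and 9.06 with HFD and CMPF. The HFD arrays lay within 0.1 of each other and more than 1 unit below every other array of the model. C6 fell by 1.82 ± 0.277 (SE, adjusted p = 0.0105), a 3.53-fold difference. C8b, the beta chain of C8, read 10.88, 10.91 and 10.66 on chow, 9.20, 9.45 and 9.98 with HFD, and 10.24 and 9.999 with CMPF. It fell by 1.28 ± 0.247 (adjusted p = 0.0178), with no overlap between chow and HFD.

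The other chains of the same complex did not pass. C8a, which lies next to C8b in the genome, had an effect of −0.22 (adjusted p = 0.455), C8g one of −0.11 (0.648), and C9, the pore-forming subunit, one of −0.18 (0.606). Hc, the gene of C5, read 12.28, 12.36 and 12.35 on chow, 12.43, 12.30 and 12.48 with HFD and 12.69 and 12.50 with CMPF, and its groups on chow and HFD overlapped. The median effect of the 6 terminal components was −0.20.

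Of the 2 complement inhibitors, C4bp fell. C4bp, the chain of C4b-binding protein that holds C4b for cleavage by factor I, read 11.81, 11.23 and 11.67 on chow, 10.94, 11.13 and 10.85 with HFD, and 11.09 and 11.27 with CMPF, a fall of 0.60 ± 0.155 (adjusted p = 0.041). The call was lost in 11 of 17 fits with a sample left out and in 4 of 10 other settings. The adjusted p from limma reached 0.172 and 0.409 there. Cfi, factor I itself, read 12.51, 12.26 and 12.42 on chow, 12.03, 12.24 and 11.68 with HFD and 12.15 and 12.33 with CMPF. Its effect of −0.41 ± 0.139 did not pass (adjusted p = 0.0913), although its chow and HFD arrays did not overlap.

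None of the 6 genes of complement activation passed, and their effects went both ways, 3 up and 3 down. Masp2, the lectin-pathway protease that cleaves C4 and C2, had the largest positive effect of the 33 genes, 0.73 ± 0.341 (adjusted p = 0.201), and read 9.44, 10.03 and 8.29 on chow, 9.97, 9.94 and 10.05 with HFD and 9.86 and 9.95 with CMPF. The chow arrays themselves spanned more than this effect, and a second Masp2 probe set had an effect of −0.61, so the direction of Masp2 rests on the probe set. C2, the zymogen that forms the C3 convertase with C4b, read 9.64, 10.003 and 9.31 on chow, 10.36, 9.95 and 9.75 with HFD and 9.83 and 9.83 with CMPF (effect 0.37, adjusted p = 0.42). The other C2 probe sets had effects of 0.05 and −0.11, so its direction also rests on the probe set. Cfb, the corresponding zymogen of the alternative pathway, read 11.42, 11.38 and 11.38, then 11.24, 11.14 and 10.88, then 10.92 and 11.21, with an effect of −0.30 (adjusted p = 0.262).

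The lectins and Masp1 complete this group. Mbl2, a mannose-binding lectin, read 11.90, 11.87 and 11.88 on chow, 12.43, 12.17 and 11.71 with HFD and 11.84 and 12.07 with CMPF, so that HFD replicate 3 lay below all chow arrays and the others above. Masp1, the protease that activates Masp2, read 10.49, 10.39 and 10.33, then 9.82, 9.92 and 10.23, then 10.21 and 10.26 (effect of HFD −0.41, adjusted p = 0.148). The other Masp1 probe sets that passed the filter on low signal had effects of 0.21, 0.04 and −0.11, so its direction rests on the probe set. Mbl1 had an effect of −0.22 (adjusted p = 0.493).

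Among the procoagulant factors that do not depend on vitamin K, 4 of 6 fell. F11, factor XI, which activates factor IX, read 9.50, 9.28 and 9.60 on chow, 8.52, 7.82 and 8.65 with HFD, and 8.86 and 8.73 with CMPF. It fell by 1.13 ± 0.192 (adjusted p = 0.0121), a 2.18-fold difference. F5, the cofactor of factor Xa, read 11.96, 11.53 and 11.73 on chow, 10.77, 11.17 and 11.13 with HFD, and 11.53 and 11.72 with CMPF. It fell by 0.72 ± 0.156 (adjusted p = 0.0244), and a second F5 probe set had an effect of −0.54.

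F13b, the carrier subunit of the fibrin-crosslinking factor XIII, read 11.33, 10.93 and 11.24 on chow, 10.60, 10.48 and 10.60 with HFD and 10.71 and 10.72 with CMPF, a fall of 0.61 ± 0.132 (adjusted p = 0.0246). Klkb1, plasma prekallikrein, the neighbour of F11 on the chromosome, read 11.65, 11.67 and 11.55, then 11.10, 10.91 and 11.37, then 11.39 and 11.51, a fall of 0.50 ± 0.134 with HFD (adjusted p = 0.0469). The Klkb1 call was lost in 12 of 17 fits with a sample left out and in 6 of 10 other settings. F12, the contact factor that activates both prekallikrein and factor XI, was not called (−0.25, adjusted p = 0.225). Kng1, kininogen, the cofactor that carries both, read 13.11, 13.20 and 12.93 on chow, 13.09, 13.09 and 13.23 with HFD and 13.27 and 13.14 with CMPF (0.05, adjusted p = 0.868). A second Kng1 probe set had an effect of −0.67, so that the probe sets of Kng1 disagree.

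The vitamin K-dependent zymogens were not called. F9, factor IX, which is defective in haemophilia B, read 11.08, 10.93 and 11.02 on chow, 10.48, 10.81 and 10.44 with HFD, and 11.08 and 10.96 with CMPF, with an effect of HFD of −0.43 ± 0.126 (adjusted p = 0.0598) and no overlap between chow and HFD. F7, which starts coagulation together with tissue factor, read 10.01, 10.26 and 10.21, then 10.47, 10.37 and 10.37, then 10.22 and 10.12 (0.24, adjusted p = 0.434). F2, prothrombin, had an effect of −0.12 (adjusted p = 0.57) and F10 one of −0.23 (adjusted p = 0.27), with F10 probe sets of mixed sign.

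The 3 fibrinogen chains all had negative effects and none passed. Fgg, the gamma chain, read 13.59, 13.08 and 13.59 on chow, 12.84, 13.07 and 12.35 with HFD and 12.78 and 12.98 with CMPF, with an effect of −0.66 ± 0.219 (adjusted p = 0.0868). Fgb had an effect of −0.57 (adjusted p = 0.172) and Fga one of −0.25 (adjusted p = 0.189).

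Of the 4 anticoagulants, only Serpind1 fell, among the genes measured here. Serpind1, heparin cofactor II, a serpin that inhibits thrombin, read 11.42, 10.79 and 11.37 on chow, 10.05, 10.28 and 9.90 with HFD and 10.42 and 10.55 with CMPF. It fell by 1.12 ± 0.253 (adjusted p = 0.0286), and its HFD arrays lay below all others of the model. Serpinc1, antithrombin, had an effect of −0.25 (adjusted p = 0.127), and Proc, protein C, one of −0.04 (adjusted p = 0.872). Pros1, protein S, the cofactor of protein C, read 8.07, 7.66 and 7.84, then 7.85, 7.81 and 7.32, then 7.47 and 7.84, with groups that overlapped (−0.20, adjusted p = 0.508). In fibrinolysis, Plg, plasminogen, had an effect of −0.29 (adjusted p = 0.205) and Serpinf2, the inhibitor of plasmin, one of 0.07 (adjusted p = 0.967).

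**Figure D2:**
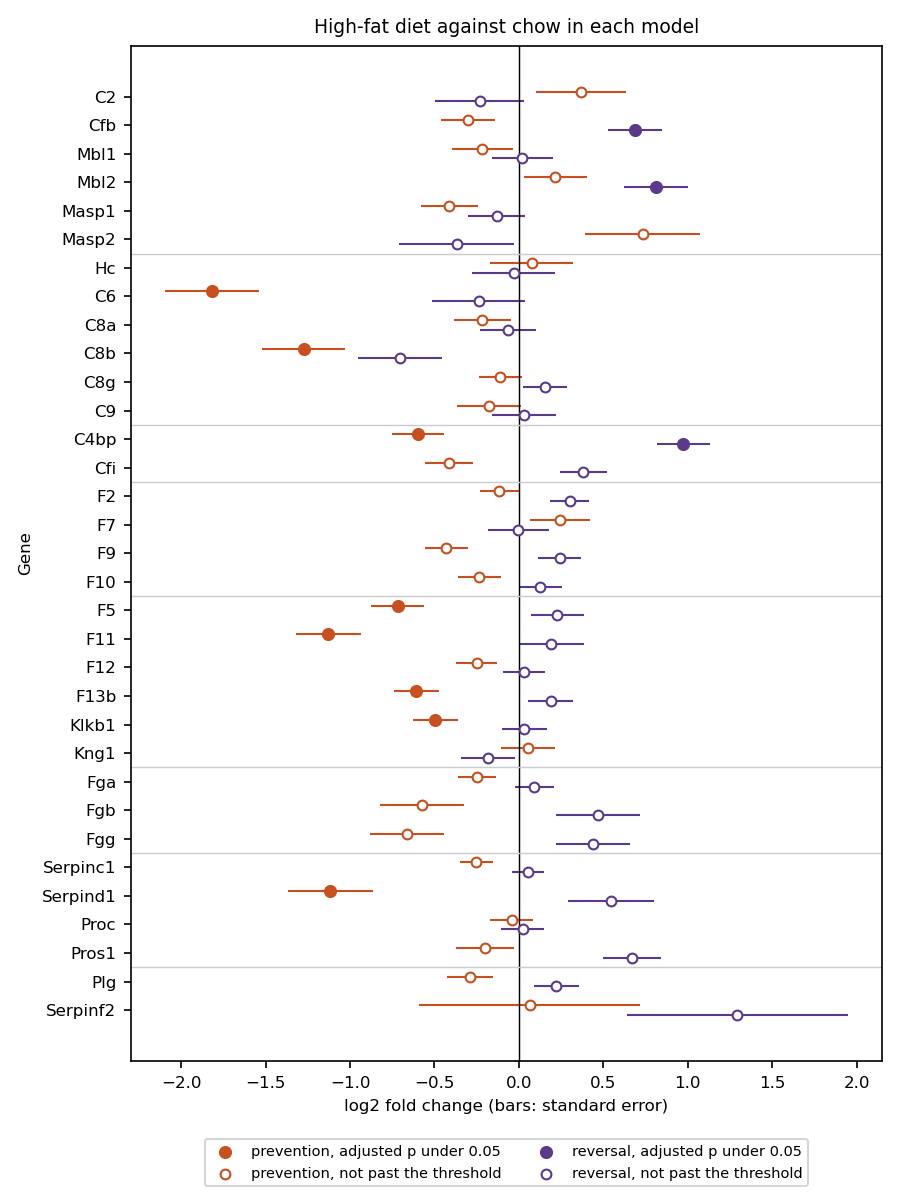
Effect of HFD against chow (log2 fold change, bars 1 SE, filled where the adjusted p is under 0.05) on each of the 33 genes in the prevention model and in the reversal model. C6 at −1.82, C8b at −1.28, F11 at −1.13 and Serpind1 at −1.12 lie farthest to the left in the prevention model, and C4bp lies at −0.60 there and at 0.97 in the reversal model.

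RNA quality and other cell types moved with this comparison. The 3′ to 5′ index was 1.42 higher on HFD than on chow, with no overlap (exact two-sided permutation p = 0.1, the smallest that 3 arrays against 3 allow). With the index as a covariate the number of genes called was 2, C6 (−2.05) and C8b (−1.73), both with adjusted p = 0.045 from limma, F11 had −1.08 (adjusted p = 0.115) and Serpind1 −0.51 (adjusted p = 0.267). Over all genes tested, calls went from 230 higher and 507 lower to 3 and 14 with the index. Endothelial markers summed to 10.2 to 10.5 on chow and 10.6 to 10.8 on HFD, with 2 of 7 markers called higher (Stab2 and Vwf), and platelet markers to 7.85 to 8.10 and 8.17 to 8.90, with 2 of 5 higher (Ppbp and Gp1bb). Neutrophil markers summed to 6.57 to 7.03 on chow and 7.07 to 8.15 on HFD, with positive effects for 4 of 4 (median 0.71) and 0 called. Hepatocyte markers summed to 16.34 to 16.38 on chow and 16.21 to 16.27 on HFD, with 0 of 6 called, but 5 of the 6 had a negative effect, 2 of them at an unadjusted p under 0.05, and their median of −0.26 was close to the −0.25 of the 33 genes. Their part in the fall of the 8 genes was not tested. The count of 8 became 0 without prevention chow replicate 1 or without prevention chow replicate 3, 2 without HFD replicate 1 or 2, and 5 without HFD replicate 3. Over all genes tested, 3 were called higher and 9 lower without chow replicate 1, and 2 and 6 without chow replicate 3. They were 7 and 18 without HFD replicate 1, 35 and 79 without HFD replicate 2, and 81 and 161 without HFD replicate 3.

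After the longer HFD of the reversal model, 3 of the 33 genes rose on HFD (C4bp, Mbl2 and Cfb) and 0 fell, where 2.17% of all genes rose and 0.28% fell. The effect was positive for 24 of the 33 (54.9% of all genes), with a median of 0.13 against 0.03. That median was 0.0340 without reversal chow replicate 2, 0.0382 without HFD replicate 2, 0.195 without HFD replicate 3 and 0.224 without chow replicate 3, and −0.0255 after quantile normalisation over all arrays. At an unadjusted p under 0.05 there were 7 genes on the higher side (15.6% of all genes) and 1 on the lower side (6.77%). All HFD arrays lay above all chow arrays for 8 genes (14.7% of all genes) and below for 0 (8.59%). Kupffer cell and macrophage markers had a positive effect for 8 of 8 (median 0.76, 0 called), with sums of 10.80 to 11.33 on chow and 11.37 to 11.71 on HFD. Endothelial markers summed to 10.77 to 11.24 on chow and 10.56 to 10.81 on HFD, and hepatocyte markers to 16.39 to 16.49 and 16.43 to 16.51. The part of these cells in the rise of C4bp, Mbl2 and Cfb was not tested.

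C4bp read 11.44, 10.92 and 11.12 on reversal chow, 12.19, 12.14 and 12.07 with HFD, and 12.15, 11.98 and 12.16 with HFD and CMPF. It rose by 0.97 ± 0.155 (adjusted p = 0.00755), a 1.96-fold increase, and all 6 HFD arrays lay above the chow arrays. Mbl2 read 11.82, 11.25 and 11.99 on chow, 12.65, 12.42 and 12.43 with HFD and 12.20, 12.04 and 12.25 with CMPF, a rise of 0.81 ± 0.189 (adjusted p = 0.0386). Cfb, the alternative-pathway zymogen, read 11.09, 10.53 and 11.20, then 11.80, 11.63 and 11.46, then 11.60, 11.46 and 11.53, a rise of 0.69 ± 0.16 with HFD (adjusted p = 0.0383).

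The chow array that stood apart, replicate 2, gave the lowest chow value of all 3 of these genes. Without it C4bp still rose (0.85, adjusted p = 0.0267), while Mbl2 (0.59, adjusted p = 0.11) and Cfb (0.49, adjusted p = 0.0948) no longer passed, and the count was 1. It was also 1 without reversal HFD replicate 1 or 3, without reversal CMPF replicate 1, and without prevention chow replicate 1 or 3 or prevention HFD replicate 2, which enter through the shared estimate of spread. Over all genes tested, calls were 287 higher and 37 lower in the main fit. They were 95 and 4 without reversal HFD replicate 1, 128 and 14 without HFD replicate 3, and 124 and 11 without chow replicate 2. These calls stayed closer to the main fit without prevention chow replicate 1 (257 and 27), prevention chow replicate 3 (216 and 25) or prevention HFD replicate 2 (237 and 22). Serpinf2 read 11.95, 8.34 and 11.89 on chow, 12.17, 12.13 and 11.75 with HFD and 12.14, 11.94 and 12.26 with CMPF. Its effect was 1.29 ± 0.655 (adjusted p = 0.254) with that array and 0.10 (adjusted p = 0.811) without it.

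Of the 8 genes that had fallen in the prevention model, C4bp had risen here and the other 7 were not called. C6 read 9.60, 8.97 and 9.60 on chow, 8.40, 9.41 and 9.63 with HFD and 9.75, 9.83 and 9.80 with CMPF, and only HFD replicate 1 was low (effect −0.24, adjusted p = 0.626). C8b read 11.12, 10.82 and 11.26 on chow, 9.98, 10.99 and 10.12 with HFD, and 10.79, 11.04 and 10.59 with CMPF, and its effect of −0.70 ± 0.247 did not pass (adjusted p = 0.127). C8b was the one gene with an unadjusted p under 0.05 on the lower side. F11 read 8.53, 8.84 and 8.95, then 9.07, 8.93 and 8.90, then 9.48, 9.03 and 9.31 (effect of HFD 0.19, adjusted p = 0.566).

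Serpind1 read 10.99, 10.37 and 10.89 on chow, 11.80, 11.02 and 11.07 with HFD and 11.39, 10.86 and 11.63 with CMPF (0.55, adjusted p = 0.22), so its HFD arrays lay above the chow arrays. F5 read 12.13, 11.51 and 11.90, then 12.06, 12.03 and 12.14, then 12.04, 12.02 and 12.01. F13b read 11.35, 11.19 and 11.44, then 11.73, 11.41 and 11.41, then 11.53, 11.25 and 11.59. Both overlapped between chow and HFD, with effects of 0.23 (adjusted p = 0.392) and 0.19 (adjusted p = 0.407). Klkb1 read 11.71, 11.43 and 11.89, then 11.57, 11.75 and 11.80, then 11.85, 11.75 and 11.70, an effect of 0.03 (adjusted p = 0.91).

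Pros1 read 7.83, 7.86 and 7.55 on chow, 8.60, 8.45 and 8.21 with HFD and 8.45, 8.11 and 8.17 with CMPF, all 6 above chow, with an effect of 0.67 ± 0.173 just short of the threshold (adjusted p = 0.0573). Cfi read 12.57, 12.28 and 12.40, then 12.69, 12.97 and 12.73, then 12.93, 12.83 and 12.76 (0.38, adjusted p = 0.142). F9 read 11.27, 10.89 and 11.30, then 11.39, 11.40 and 11.39, then 11.46, 11.24 and 11.33 (0.24, adjusted p = 0.265). For Cfi and F9 the HFD arrays again lay above chow without a call. Fgg read 13.59, 12.84 and 13.50, then 13.88, 13.81 and 13.56, then 13.75, 13.49 and 13.78 (0.44, adjusted p = 0.246).

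The remaining named genes overlapped between chow and HFD. C2 read 9.94, 10.13 and 10.42, then 9.58, 10.17 and 10.04, then 10.62, 10.77 and 9.73. Masp2 read 9.62, 9.95 and 10.13, then 9.16, 9.93 and 9.50, then 9.87, 10.01 and 9.24. Kng1 read 13.51, 13.56 and 13.62, then 13.08, 13.60 and 13.47, then 13.53, 13.72 and 13.07. In all 3 the low reversal arrays were HFD replicate 1 and CMPF replicate 3, the arrays with the lowest 3′ to 5′ index of the model (1.55 and 1.66). The HFD effect was −0.37 for Masp2 and −0.18 for Kng1 here, and 0.31 and 0.19 on their second probe sets. The C2 probe sets had −0.23, −0.17 and 0.30, so the direction of these genes rests on the probe set. Masp1 read 10.55, 10.58 and 10.76, then 10.19, 10.72 and 10.59, then 11.12, 11.04 and 10.53. F7 read 9.79, 10.43 and 10.50, then 10.17, 10.60 and 9.94, then 10.63, 10.53 and 10.53, and Hc 12.17, 12.76 and 12.86, then 12.58, 13.18 and 11.93, then 12.81, 13.05 and 12.76.

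**Figure D3:**
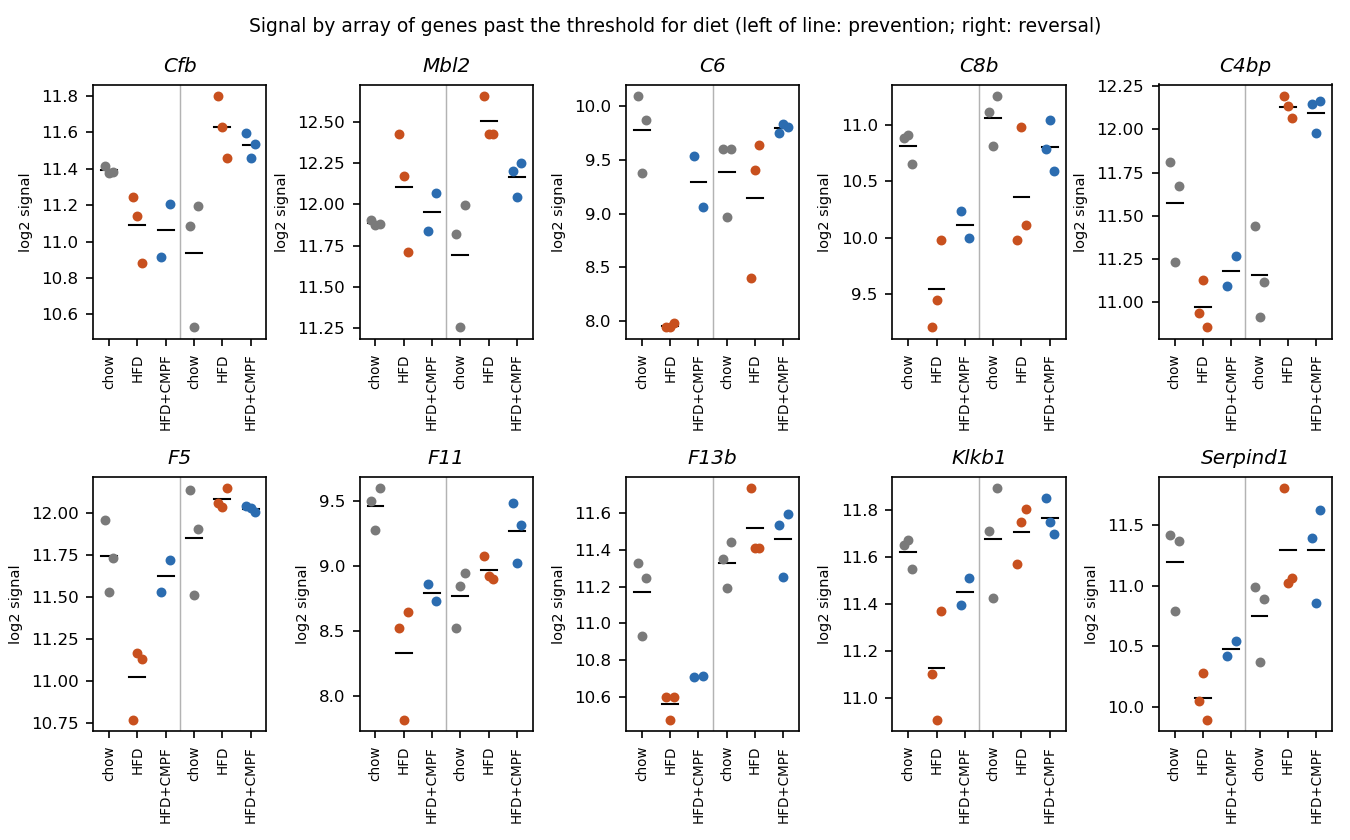
Log2 signal on each array (points) with the group mean (bar) of the 10 genes that passed for HFD against chow in either model, by group; each panel has its own axis, which does not start at 0. The prevention HFD points of C6 lie at 7.94 to 7.99 and the reversal HFD points of C4bp at 12.07 to 12.19; levels of different genes are not comparable, since each has its own probe set.

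Whether the response to HFD differed between the models was tested as the effect in the reversal model minus that in the prevention model. The difference was positive and passed for 11 of the 33 genes and negative and passed for 0, where 8.84% of all genes passed upward and 2.14% downward. It was positive for 28 of the 33 (52.7% of all genes), with a median of 0.51, against 0.03 over all genes. At an unadjusted p under 0.05 there were 17 genes on the higher side (20.4%) and 1 on the lower side (10.6%). Those 11 were Serpind1 (1.66 ± 0.358, adjusted p = 0.0221), C6 (1.58 ± 0.391, 0.0287), C4bp (1.57 ± 0.219, 0.0163), F11, Fgg, Cfb, F5, Pros1, Cfi, F13b and F9, the last 8 with differences of 0.67 to 1.32 and adjusted p of 0.0202 to 0.0392. They include both complement inhibitors, 2 of 4 anticoagulants, 3 of 6 procoagulant factors that do not need vitamin K, 1 of 3 fibrinogen chains and 1 each of the terminal, activating and vitamin K-dependent groups. C8b, which had a negative effect in both models, had a difference of 0.57 that did not pass (adjusted p = 0.279).

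The models differ in the length of HFD and in the time of the injections, and their arrays lay at different signal levels, so that duration and processing cannot be told apart. After quantile normalisation over all arrays 6 of the 11 differences passed, C4bp, C6, Cfb, F11, Fgg and Serpind1. With the 3′ to 5′ index as a covariate 0 of the 33 passed, as did 0 of all genes tested by limma. The count was 0 without prevention chow replicate 1, 1 without prevention chow replicate 3, 2 without prevention HFD replicate 3 or reversal HFD replicate 1, 6 without reversal chow replicate 2, and 7 without reversal HFD replicate 2. Over all genes tested, calls went from 1169 upward and 283 downward to 651 and 512 after quantile normalisation. They were 0 and 0 without prevention chow replicate 1, 30 and 5 without prevention chow replicate 3, and 231 and 29 without prevention HFD replicate 3. In the reversal model they were 50 and 5 without HFD replicate 1, 532 and 101 without chow replicate 2, and 898 and 204 without HFD replicate 2.

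The effect of CMPF against vehicle on HFD passed for 0 of the 33 genes in the prevention model, where 0% of all genes passed in either direction by limma. At an unadjusted p under 0.05 there were 5 genes on the higher side (5.86% of all genes) and 0 on the lower side (2.15%). The effect was positive for 24 of the 33 (53.2% of all genes), with a median of 0.12 against 0.02. The CMPF samples lay above all HFD arrays for 13 genes (19.7%) and below them for 1 (11.1%).

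C6 had the largest of these effects, 1.34 ± 0.309 (adjusted p = 0.252, 95% interval 0.67 to 2.00). Its CMPF samples at 9.53 and 9.06 lay above the HFD arrays at 7.94 to 7.99. The sample at 9.53 was within the range of the chow arrays (9.37 to 10.09), and the one at 9.06 was below it. F5 had 0.60 ± 0.174 (adjusted p = 0.393), F9 0.44 ± 0.14 (adjusted p = 0.47), F11 0.47 (adjusted p = 0.622) and Klkb1 0.32 (adjusted p = 0.621). C8b had 0.57 ± 0.276 (adjusted p = 0.637) and Serpind1 0.41 ± 0.283 (adjusted p = 0.788). On the lower side the smallest p-values were those of F7 (−0.23, adjusted p = 0.832) and Mbl2 (−0.15, adjusted p = 0.916). These comparisons share the HFD arrays with the HFD comparison, so a low HFD array moves both.

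Against chow, the prevention CMPF samples also gave 0 calls (0% of all genes by limma), with 6 of the 33 genes at an unadjusted p under 0.05 on the lower side (4.2% of all genes) and 0 on the higher side (5.79%). The effect was negative for 24 (49.7%), with a median of −0.16, and the CMPF samples lay below all chow arrays for 16 genes (14.4%) and above them for 2 (17.3%). F11 had −0.66 and F13b −0.46 (adjusted p = 0.399 each), C8b −0.70 (0.453), Serpind1 −0.71 (0.457) and C6 −0.48 (0.602), while F5 had −0.12 (0.846) and F9 0.01 (0.988). The largest positive values were those of Masp2, 0.65 (adjusted p = 0.572), and Hc, 0.27 (0.749). The chow arrays also serve the HFD comparison.

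In the reversal model CMPF against vehicle again passed for 0 of the 33 genes (0.0151% of all genes rose and 0.0227% fell), with 2 at an unadjusted p under 0.05 on the higher side (1.91%) and 0 on the lower (2.88%). The effect was positive for 21 of the 33 (47.5% of all genes), with a median of 0.06. The CMPF arrays lay above all HFD arrays for 1 gene (3.79%) and below them for 1, Mbl2 (5.03%). The 2 genes on the higher side were C6 (0.65 ± 0.277, adjusted p = 0.951), whose CMPF arrays at 9.75 to 9.83 lay above all HFD arrays, and whose effect was 0.27 without the low HFD replicate 1, and Masp1 (0.40 ± 0.168, adjusted p = 0.948), whose arrays overlapped. The other Masp1 probe sets that passed the filter on low signal had effects of 0.02, −0.12 and −0.10, and the mean over probe sets was 0.05, so the Masp1 value rests on the probe set. On the lower side Mbl2 had −0.34 ± 0.189 and Pros1 −0.18 ± 0.173. All 6 terminal components had a positive effect here, from 0.11 to 0.65, and none passed. The difference of the CMPF effects between models passed for 0 of the 33 genes and for 0% of all genes by limma. The 2 genes F5 (−0.66) and F9 (−0.49), had an unadjusted p under 0.05, both with the lower effect in the reversal model (5.73% of all genes), and 0 had the higher one (2.19%).

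C4bp was the one gene of the 33 that rose with HFD and CMPF against chow in the reversal model (0.94 ± 0.155, adjusted p = 0.009, or 0.82 and 0.0297 without reversal chow replicate 2), where 1.61% of all genes rose and 0.393% fell. Cfb had 0.59 (adjusted p = 0.0736), Mbl2 0.48 (0.201) and Pros1 0.49 (0.157). The effect was positive for 30 of the 33 genes (54.9% of all genes), with a median of 0.27 that was 0.13 without reversal chow replicate 2. At an unadjusted p under 0.05 there were 8 genes on the higher side (12% of all genes) and 0 on the lower side (5.99%). The CMPF arrays lay above all chow arrays for 11 genes (10.7%) and below them for 0 (7.67%). The 3 negative effects were those of C8b (−0.26, adjusted p = 0.605), Kng1 (−0.12, 0.723) and Masp2 (−0.19, 0.801). A second probe set had an effect of 0.27 for Kng1 and of 0.46 for Masp2, so their direction rests on the probe set.

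**Figure D4:**
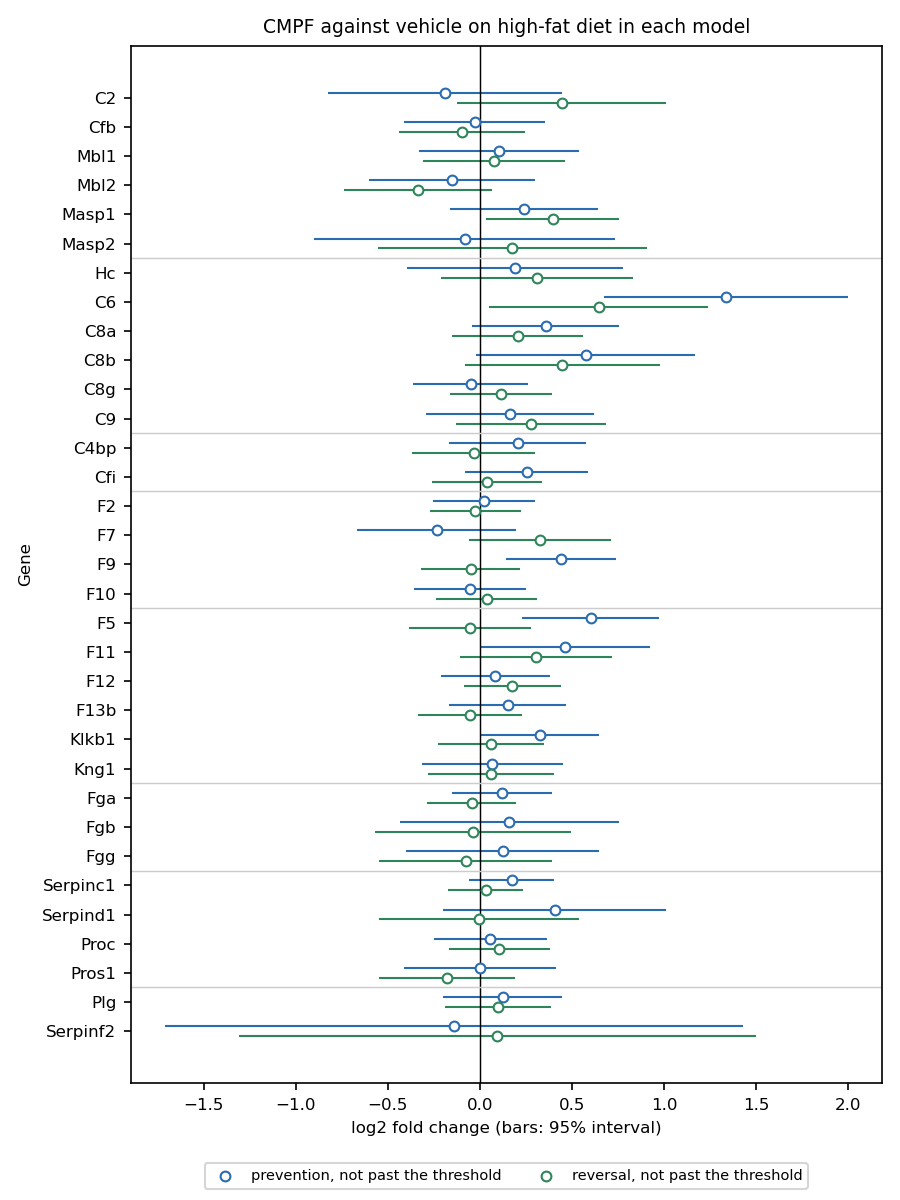
Effect of CMPF against vehicle on HFD (log2 fold change, bars the 95% interval) on each of the 33 genes in the prevention model (n = 2 against 3) and the reversal model (3 against 3). C6 lies farthest to the right in both, at 1.34 and 0.65, and no gene passed after adjustment.

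Other genes of the same pathways were looked at as lists. Over all genes tested, 1.74% rose and 3.83% fell on HFD in the prevention model, and 2.17% and 0.28% in the reversal model. The difference between models passed upward for 8.84% of all genes and downward for 2.14%. Of 8 genes for the vitamin K cycle and for the export of factors, 2 fell on HFD in the prevention model: Lman1, which with Mcfd2 forms the cargo receptor that carries factors V and VIII out of the endoplasmic reticulum (−0.92 ± 0.168, adjusted p = 0.0157), and Vkorc1, the vitamin K epoxide reductase that warfarin inhibits (−0.89 ± 0.207, 0.0297). In the reversal model 1 of the 8 rose, Ggcx, the carboxylase that modifies the vitamin K-dependent factors (1.13 ± 0.272, 0.0448). The difference between models passed for 4 of the 8, all upward: Ggcx (1.95), Vkorc1 (1.21), Lman1 (1.21) and Mcfd2 (0.75). Of 21 other coagulation genes, Vwf, von Willebrand factor, which endothelial cells make, was the one that rose in the prevention model (0.99 ± 0.197, 0.0179) and 0 fell.

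Of 18 other complement genes, 0 passed in the prevention model, and Cd59a, a membrane inhibitor of the attack complex, rose in the reversal model (0.76 ± 0.146). Of 15 acute-phase genes, 1 rose in the prevention model (Saa4, 0.71) and 3 in the reversal model, Saa4 (1.06), Orm2 (3.78) and Saa1 (3.28). Against chow, HFD with CMPF in the reversal model had 6 of the 15 higher, up to 5.46 for Lcn2, and 2 of the 21 other coagulation genes, Fgl1 (1.36) and Itih4 (0.91). In that comparison 1.61% of all genes rose and 0.393% fell. Of 15 hepatocyte transcription factors, 0 passed on HFD in the prevention model, with a median of −0.16. CMPF against vehicle passed for 0 genes of these lists in either model. Of all genes, 0% passed in the prevention model, and 0.0151% rose and 0.0227% fell in the reversal model.

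**Figure D5:**
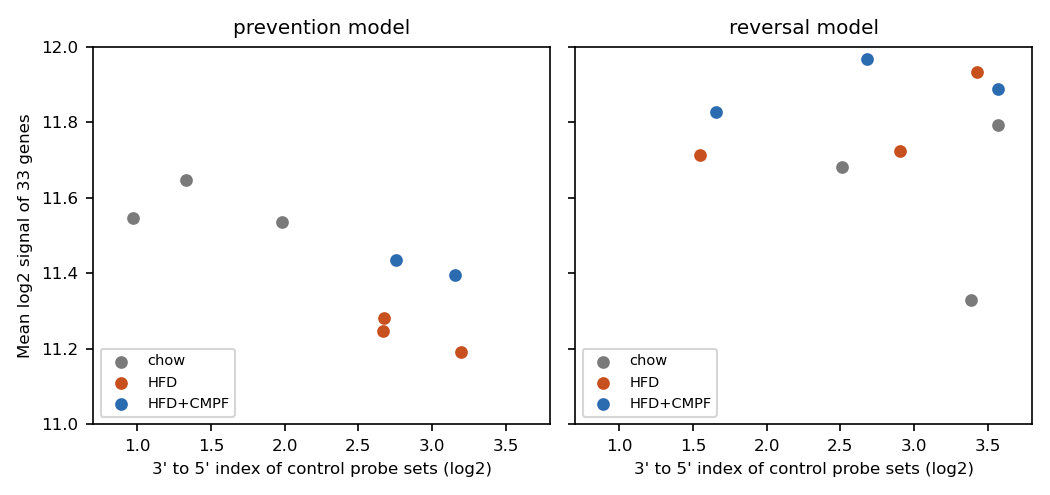
Mean log2 signal of the 33 genes (vertical axis) against the 3′ to 5′ index of the control probe sets (horizontal axis, log2), 1 point per sample. In the prevention model the chow samples (index 0.968 to 1.98, mean signal 11.54 to 11.65) lie apart from the HFD samples (2.66 to 3.19, 11.19 to 11.28), with CMPF between in mean signal at 11.40 and 11.44; in the reversal model the groups overlap in the index.

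The spread between arrays of 1 group was ordinary for these genes: the median within-group SD was 0.209 against 0.2 over all genes, with a range from 0.0914 to 0.9, the highest being Serpinf2 through reversal chow replicate 2. The mean of the 33 genes was 11.54 to 11.65 on prevention chow, 11.19 to 11.28 on HFD and 11.40 to 11.44 with CMPF, where the index was 0.968 to 1.98, 2.66 to 3.19, and 2.75 and 3.16. In the reversal model the mean was 11.33 to 11.79 on chow, where 11.33 was replicate 2, 11.71 to 11.93 on HFD and 11.83 to 11.97 with CMPF.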

How the data were processed

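RNA of mouse liver was hybridised to 18 Affymetrix arrays with 45101 probe sets (64 controls). The deposited values are log2 signals that the authors made with Affymetrix Expression Console version 1.1 and RMA, per the submitters' processing notes; they were used as deposited. Arrays give no depth, and their number limits the precision. Genes were named through the platform annotation. The dimmest 40% of probe sets, by their mean signal, were left out, and each gene kept its probe set with the highest mean. Groups came from the sample labels. One linear model of 6 group means was fitted with limma 3.58.1 in R 4.3.3 (17 samples, 11 residual and 3.02 prior degrees of freedom), with 8 comparisons and Benjamini-Hochberg adjustment over 13228 genes at a threshold of 0.05. The pipeline was tested on simulated data. The genes, roles and pathway lists were chosen with earlier results of these data known.

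Values on every sample are given for genes that passed in any comparison and for the 2 with the smallest p per direction in each comparison between groups, 20 in all. The alternatives were other filters, other choices of probe set, a joint quantile normalisation, the 3′ to 5′ index as a covariate, fewer groups in the fit, all 18 arrays, replicate blocks and leaving out each sample. No array was left out of the main analysis. Promoter windows are those of RefSeq, and the motifs were counted by exact match.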

Additional observations from a re-analysis of the deposited data

Results flagged for a closer look

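For 11 of the 33 genes the effect of HFD against chow differed between the models, by limma's test of the difference itself (reversal minus prevention, adjusted over 13228 genes). Over all genes tested, 8.84% passed upward and 2.14% downward. The differences in log2 were 1.57 for C4bp, 1.58 for C6, 0.99 for Cfb, 0.79 for Cfi, 1.32 for F11, 0.79 for F13b, 0.95 for F5, 0.67 for F9, 1.1 for Fgg, 0.87 for Pros1 and 1.66 for Serpind1, with adjusted p from 0.0163 to 0.0392. The HFD effect was 0.97 in the reversal and −0.60 in the prevention model for C4bp, the one gene of the 11 that passed in both models. With a sample left out, its fall in the prevention model no longer passed in 11 of 17 fits, and its rise in the reversal model in 0 of 17. The 3′ to 5′ index was 1.42 higher on HFD than on chow in the prevention model and 0.53 lower in the reversal model, and 0 of the 11 differences passed with the index in the model. The part of RNA quality beyond this was not tested.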

How the results depend on the processing

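Under the other settings tried the direction of the named genes held in most cases. Of 1112 values over 27 settings, 939 kept their direction and their side of the threshold, 162 no longer passed, 3 newly passed and 8 changed sign. The 1112 include values of genes not called in the main fit, which could not lose a call. The share of called values that lost the call is therefore larger than 162 of 1112. Those that changed sign were all of genes not called: Kng1 in the reversal model with probe sets averaged (0.00483 for HFD, 0.0766 for CMPF on HFD against chow), with the index (0.0234) and without reversal CMPF replicate 3 (0.0645, from a range of −0.26 to 0.0645), C2 (−0.20, HFD), Hc (−0.0579) and Masp2 (−0.13, CMPF on HFD against chow) in the prevention model with the index, and Mbl2 for CMPF without prevention HFD replicate 1 (0.0112, from a range of −0.35 to 0.0112).

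With a sample left out, the median effect was −0.31 to −0.23 for HFD in the prevention model and 0.0340 to 0.224 in the reversal model. The number of genes called for HFD in the prevention model was 2 with the index as a covariate and 3 with only the 2 groups compared, and 0 to 10 when a sample was left out. In the reversal model it was 1 with the arrays of that model only and 0 with the 2 groups only, and 1 to 4 with a sample left out. For CMPF on HFD against chow in the reversal model it was 0 with the 2 groups only and 1 to 2 with a sample left out. For the difference of HFD effects it was 6 after joint quantile normalisation, 0 with the index and 0 to 13 with a sample left out. Over all genes tested, the fits of the 2 groups only called 60 higher and 218 lower for HFD in the prevention model. In the reversal model they called 0 and 0 for HFD, and 8 and 0 for CMPF on HFD against chow. The arrays of the reversal model only gave 36 and 2 for HFD. Quantile normalisation took the median effect of HFD in the prevention model from −0.251 to −0.145. It moved the median effect in the reversal model to −0.0255 for HFD and to 0.13 for CMPF on HFD against chow, which was 0.13 to 0.35 with a sample left out. Fewer samples or groups leave fewer degrees of freedom; otherwise the cause was not tested. With a sample left out, the index difference ranged from −0.0902 to 0.313 for CMPF in the prevention model (0.286 without HFD replicate 3), from −0.93 to 0.00978 for HFD in the reversal model and from −0.53 to 0.50 for CMPF there.

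By the labels, same-numbered arrays of different groups shared only a number, and whether they shared a batch was not tested. Of these pairs, 14 of 45 had a correlation of their deviations over 0.1 (−0.37 to 0.51). With the replicate number as a block the counts were 8 (the same 8 genes) for HFD in the prevention model, 4 in the reversal model, 1 for CMPF on HFD against chow there, 11 for the difference of HFD effects and 0 for the other comparisons, so no count moved by over 1.5 times. Over all genes tested, the block took calls for HFD in the prevention model from 230 higher and 507 lower to 297 and 720. For the difference of HFD effects it took them from 1169 upward and 283 downward to 1546 and 369. Array number, not depth, limits precision.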
